A study of Mus musculus with 4 samples.

Results

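The 37 transcripts of the mitochondrial genome were described in mouse embryonic stem cells (mESCs) whose CTCF could or could not carry the O-GlcNAc sugar at T668. The members are all rows of the RNA-seq count table that lie on the mitochondrial chromosome, 37 of 37620 rows, and comprise 13 mRNA, 2 rRNA and 22 tRNA rows. RNA was sequenced from 2 libraries of WT_CTCF and 2 libraries of MUT_CTCF mESCs. Both lines were made from CTCF-mAID mESCs, in which the tagged endogenous CTCF is degraded with auxin, and both received CTCF from a vector, as the wild-type protein in WT_CTCF and as the protein mutated at T668 in MUT_CTCF. Each line is a clone picked for its CTCF level, so clone and mutation cannot be told apart, and the libraries are biological replicates of 1 line each. The cells grew on gelatin in medium with serum and LIF. The labels call the extract total RNA and the study's methods call it total mRNA, and neither names the selection step or the strand setting. The study gives a dose and a time of auxin for degrading the endogenous CTCF, without naming them for the RNA-seq libraries.

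Mitochondrial DNA is a circle that is read from both strands into long transcripts spanning most of the genome. The tRNAs lie between most of the mRNAs and rRNAs, and cutting at the tRNA ends releases the single RNAs. The 13 mRNA rows are protein-coding genes for membrane subunits of respiratory complexes I, III and IV and of the ATP synthase, complex V. The other subunits come from the nucleus. The rows of mt-Atp8 and mt-Atp6 overlap, as do those of mt-Nd4l and mt-Nd4, so the 13 rows need not be 13 separate RNAs. The polymerase POLRMT and the factor TFAM start transcription, and RNA-binding proteins such as LRPPRC set how long each mRNA lasts, so that RNAs cut from the same precursor can differ in level. Of the 37 rows, 28 lay on the strand that carries most genes, and 9, mt-Nd6 and 8 tRNAs, on the other.

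The mouse nuclear genome holds copies of mitochondrial DNA, and a read that matches both places equally is not uniquely mapped. In the NCBIM37 (mm9) genome, 44 nuclear stretches matched the mitochondrial genome, 8 of them over 1000 bases. The longest lay on the minus strand of chr1:24618374-24623027, was 4654 bases long with 99.936% identity, and matched mitochondrial positions 6390 to 11042, 28.6% of the 16299-base circle. Within it the alignment differed at 3 places only, a substitution A6393T in mt-Co1, a substitution T9461C in mt-Nd3 and 1 extra base in mt-Tr. In these names the mitochondrial base stands first, then its position counted from 1 at the start of the mitochondrial sequence, then the base of the copy. The stretches around the mt-Nd3 and mt-Tr differences are shown because, away from its edge, they alone tell the copied region from its copy, with the differing base in capitals and all read along the plus strand of the mitochondrial genome.
mt-Nd3, chrM:9431-9491: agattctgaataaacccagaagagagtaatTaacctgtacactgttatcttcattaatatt
its copy, chr1:24619926-24619986: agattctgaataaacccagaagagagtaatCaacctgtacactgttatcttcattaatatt
mt-Tr, chrM:9799-9858: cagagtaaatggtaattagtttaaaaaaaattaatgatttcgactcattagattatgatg
its copy, chr1:24619558-24619618: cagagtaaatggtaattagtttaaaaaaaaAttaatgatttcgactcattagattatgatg
Other long copies matched positions 4441 to 7699 on chromosome 2 (97.4% identity) and 12488 to 15359 on chromosome 4 (93.0%).

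The 6 mRNA rows with almost no unique sequence were also those with the fewest mRNA counts. Of the 100-base windows inside mt-Co2, mt-Atp8, mt-Atp6, mt-Co3 and mt-Nd4l, 0% occurred once in the genome, and in mt-Nd3 1.2% did. These 6 mRNA rows held 5 to 363 counts per library, whereas the other 7 mRNA rows held 5144 to 477587. mt-Co1, the catalytic core subunit of complex IV, was 69.2% unique, mt-Nd4 39.3% and mt-Nd2 96.8%, and mt-Nd1, mt-Nd5, mt-Nd6 and mt-Cytb were 100% unique. Outside these 6 rows, mt-Co1 had the most counts and mt-Nd4 had 34569 to 36946. The rRNA rows, 98.8% and 100% unique, had 2071 to 2941. The rows differ in length and in class of RNA, so these counts do not show what uniqueness does. The cause of the low counts of the 6 rows was not tested. Levels of the 6 rows in the copied stretch were not set beside those of the other mitochondrial RNAs. Their counts are compared between the lines below, but whether these few counts follow the level of each RNA was not tested. The cells' own mitochondrial sequence was not analysed here.

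**Figure D1:**
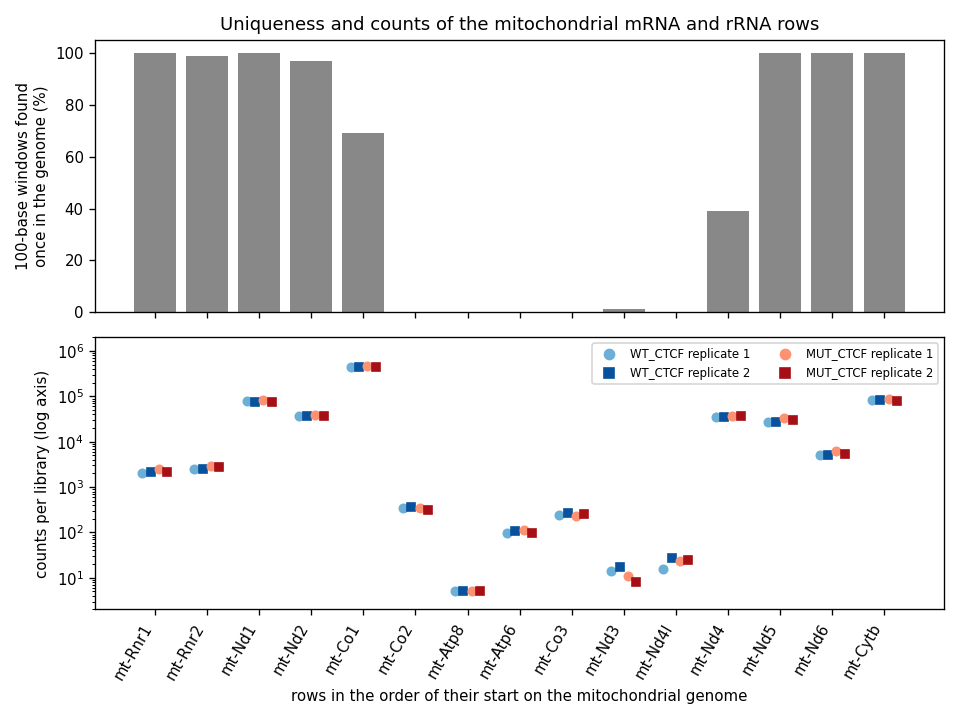
Bars give the percentage of 100-base windows of each mitochondrial mRNA and rRNA row that occur once in the mm9 genome, and points give the counts of each of the 4 libraries on a log axis. The 6 rows from mt-Co2 to mt-Nd4l have 0% to 1.2% unique windows and at most 363 counts, and the 4 libraries lie close together in every row with over 1000 counts.

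The mitochondrial mRNA rows took 1.74% and 1.72% of all counts in WT_CTCF replicates 1 and 2, and 1.87% and 1.76% in MUT_CTCF replicates 1 and 2. Both MUT_CTCF libraries were above both WT_CTCF libraries, but MUT_CTCF replicate 2 was close to WT_CTCF and MUT_CTCF replicate 1 stood apart. The Wilson 95% intervals were 1.866% to 1.874% for MUT_CTCF replicate 1 and 1.754% to 1.762% for MUT_CTCF replicate 2, which do not overlap. Those of WT_CTCF, 1.737% to 1.745% and 1.718% to 1.726%, did not overlap either. Replicates of both lines thus differed by more than the counting error of reads taken as independent, by less in WT_CTCF. The means were 1.73% ± 0.0138 in WT_CTCF and 1.81% ± 0.0792 in MUT_CTCF (SD, n = 2 each), a log2 ratio of 0.067 with p = 0.33 in an exact two-sided permutation test, the smallest p that 2 libraries against 2 can give. Leaving out MUT_CTCF replicate 1 gave a log2 ratio of 0.022, and leaving out MUT_CTCF replicate 2 gave 0.11. In bulk RNA, more mitochondria per cell, more RNA per mitochondrion and less nuclear RNA cannot be told apart.

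The rRNA rows together took 0.0111% and 0.0115% of counts in WT_CTCF and 0.0132% and 0.0123% in MUT_CTCF. Again both MUT_CTCF libraries were above both WT_CTCF libraries, with replicate 1 the higher. The log2 ratio was 0.18 (exact permutation p = 0.33, n = 2 each), 0.12 when MUT_CTCF replicate 1 was left out and 0.23 when MUT_CTCF replicate 2 was. The tRNA rows took 0.00107% and 0.00103% in WT_CTCF and 0.0012% and 0.001% in MUT_CTCF, and here the lines overlapped (exact permutation p = 1.0, n = 2 each). The tRNA log2 ratio of 0.072 became -0.061 without MUT_CTCF replicate 1. Of the 437 and 420 tRNA counts in WT_CTCF, 433 and 416 lay on mt-Tp, as did 483 and 402 of the 490 and 407 in MUT_CTCF. The tRNA share is thus in effect that of 1 row. Wilson intervals cover only the counting error of reads taken as independent. PCR copies of a molecule are counted as separate reads, so the intervals can be too narrow.

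**Figure D2:**
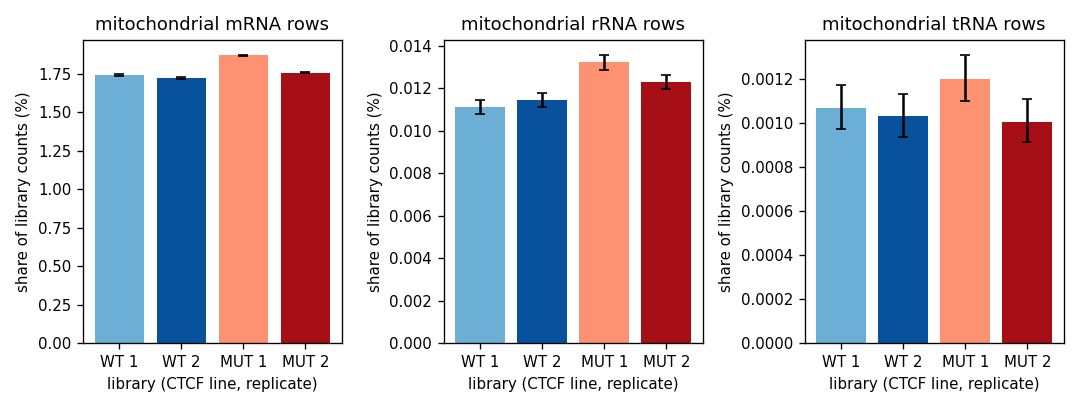
Each bar is the share of a library's counts, in percent, on the mitochondrial mRNA, rRNA or tRNA rows, with the Wilson 95% interval, for WT_CTCF (WT) and MUT_CTCF (MUT) replicates 1 and 2. MUT_CTCF replicate 1 is the highest library in all 3 classes, at 1.87%, 0.0132% and 0.0012%. The tRNA counts lie almost wholly on the row mt-Tp.

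Replicates of MUT_CTCF differed in the same direction over the mitochondrial rows. Among the 9 rows with a mean of at least 1000 counts, all 9 had more normalized counts in MUT_CTCF replicate 1 than in replicate 2, by 0.0016 to 0.17 on the log2 scale with a median of 0.094. Normalized counts are counts divided by edgeR's TMM-scaled library size and multiplied by the mean library size. Over all 6461 rows of the table with at least that many counts the same median was -0.0043, and the 80% in the middle lay between -0.11 and 0.098. The WT_CTCF replicates differed by -0.063 to 0.082 in these 9 rows, replicate 2 over replicate 1, and replicate 1 was the higher in 6 of them.

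Row by row, 15 of the 37 mitochondrial rows had enough counts to be tested, namely 12 mRNA rows, both rRNA rows and 1 tRNA row. At an adjusted p under 0.05 in edgeR's quasi-likelihood test, 3 mRNA rows and 1 rRNA row were higher in MUT_CTCF and 0 were lower, with 5 mRNA rows and 1 rRNA row at an unadjusted p under 0.05, none of them lower, where 15.3% of all rows tested were in either direction. For comparison, 1.56% of the 16264 rows tested in the whole table were called higher and 1.61% lower. These shares were not matched for counts. All called mitochondrial rows had a mean of at least 1000 counts, as 6461 rows of the table did. Scaled by library size alone, the whole table gave 260 higher and 152 lower calls (63.1% of them higher) in place of 253 and 262 (49.1%). Both MUT_CTCF libraries were above both WT_CTCF libraries in 5 mitochondrial rows and below in 2, against 22.3% above and 22.3% below over all rows tested. The log2 fold change of MUT_CTCF over WT_CTCF, here the log2 change, is given with its standard error (SE). Its median over the 12 mRNA rows was 0.037 and over the 2 rRNA rows 0.16, beside 0.0034 for all rows tested. The mRNA median was -0.014 in the fit without MUT_CTCF replicate 1 and 0.085 in that without replicate 2 of the same line.

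mt-Nd5 rose most among the called rows. It lies at positions 11742 to 13565 and encodes ND5, a proton-pumping subunit in the membrane arm of complex I. Its normalized counts were 26750 and 26823 in WT_CTCF and 32714 and 30855 in MUT_CTCF. The WT_CTCF libraries were nearly equal, and both MUT_CTCF libraries were well above them. The means of 26787 ± 51.2 and 31785 ± 1315 (SD, n = 2 each) gave a log2 change of 0.25 (SE 0.026, edgeR adjusted p = 4.43e-10), an increase of 18.7%. The row was 0.20 higher without MUT_CTCF replicate 1 (adjusted p = 0.139 from edgeR) and 0.29 higher without MUT_CTCF replicate 2 (adjusted p = 0.0824). In those fits, with MUT_CTCF reduced to 1 library, 0 of 16933 and 0 of 16932 rows of the whole table were called, and 1651 and 1585 had an unadjusted p under 0.05. Leaving out either WT_CTCF library kept the mt-Nd5 call.

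mt-Nd6 lies on the opposite strand at positions 13552 to 14070, so that its end meets the end of mt-Nd5, and it encodes another membrane subunit of complex I. The 14 bases that belong to both rows are shown in capitals with 30 bases on each side, since both rows were called and reads that touch both genes can be lost in counting.
mt-Nd5 and mt-Nd6 ends, chrM:13522-13595, plus strand: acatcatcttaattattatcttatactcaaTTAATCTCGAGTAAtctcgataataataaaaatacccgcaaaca
The mt-Nd6 row had 5156 normalized counts in each WT_CTCF library and 6057 and 5519 in the MUT_CTCF libraries. Both MUT_CTCF libraries were higher, and they differed from each other by more than the WT_CTCF libraries did. The log2 change was 0.17 (SE 0.043, edgeR adjusted p = 0.0171), an increase of 12.3%. The value was 0.098 when MUT_CTCF replicate 1 was left out and 0.23 when MUT_CTCF replicate 2 was, and with any 1 library left out mt-Nd6 was no longer called (adjusted p = 0.119 to 0.515 from edgeR). It was not called in DESeq2 either (adjusted p = 0.0517), and over its 14 alternatives the adjusted p ran from 0.0038 to 0.515. Where strand is not used in counting, RNA from mt-Nd6 and RNA read from the opposite strand through the same positions cannot be told apart, and the sources used here do not give the strand setting.

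mt-Co1 had the most counts of all mitochondrial rows. The row had 446431 and 441205 normalized counts in WT_CTCF and 473466 and 449044 in MUT_CTCF. MUT_CTCF replicate 2 was only just above WT_CTCF replicate 1. The log2 change was 0.056 (SE 0.016, edgeR adjusted p = 0.0319), an increase of 3.93%, and it was 0.017 when MUT_CTCF replicate 1 was left out and 0.092 when MUT_CTCF replicate 2 was. mt-Co1 was not called without any one of the 4 libraries (adjusted p = 0.0507 to 0.635 from edgeR), nor in DESeq2 (adjusted p = 0.244) or edgeR's exact test (adjusted p = 0.393). Its 14 alternatives gave edgeR or DESeq2 adjusted p-values from 0.00671 to 0.996, the latter in a fit scaled to the mitochondrial mRNA total, which is mostly mt-Co1.

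mt-Nd4, which encodes a further proton-pumping subunit of complex I, had 34715 and 34650 normalized counts in WT_CTCF and 36627 and 36587 in MUT_CTCF. The replicates of each line were nearly equal and the lines did not overlap. Its log2 change of 0.078 (SE 0.024, edgeR adjusted p = 0.0585) missed the threshold, and it passed in 4 of 14 alternatives, DESeq2 among them (adjusted p = 0.041, range 0.0221 to 0.899). Unlike the other well-counted rows, its value was 0.077 without either MUT_CTCF library.

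The other well-counted mRNA rows were not called. mt-Nd2, a subunit of complex I, had 37054 and 36628 normalized counts in WT_CTCF and 39467 and 36965 in MUT_CTCF, and mt-Nd1, a subunit next to the quinone site of the same complex, had 79338 and 75930 against 81851 and 75064. mt-Cytb, the only complex III subunit of the mitochondrial genome, had 84530 and 83400 in WT_CTCF and 87216 and 80966 in MUT_CTCF. In each of the 3 the lines overlapped, with MUT_CTCF replicate 1 the highest library. Their log2 changes were 0.053, 0.015 and 0.0022, with 95% intervals from the SE of 0.003 to 0.10, -0.032 to 0.063 and -0.042 to 0.046. Without MUT_CTCF replicate 1 the log2 changes of mt-Nd1 and mt-Cytb were -0.049 and -0.052.

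**Figure D3:**
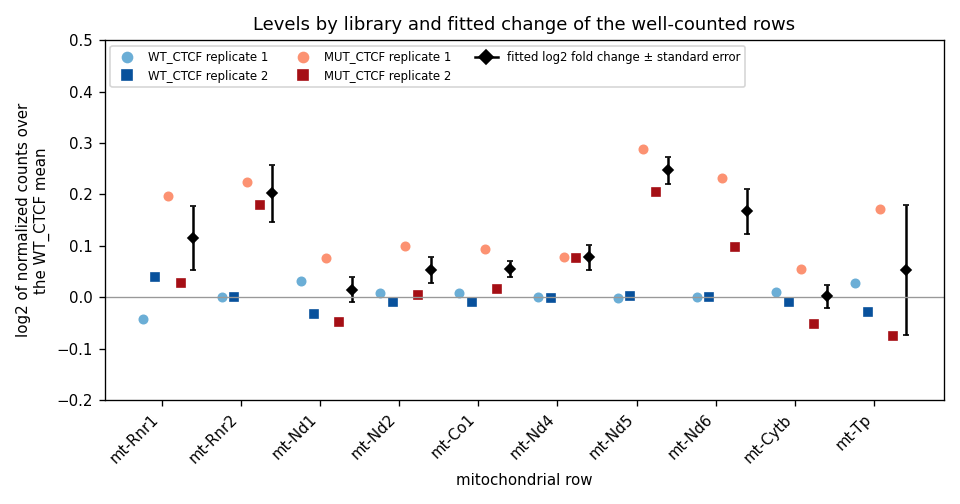
Points give the log2 of each library's normalized counts over the WT_CTCF mean for the 9 mitochondrial rows with a mean of at least 1000 counts and for mt-Tp, and diamonds give edgeR's log2 fold change with its SE. MUT_CTCF replicate 1 lies above MUT_CTCF replicate 2 in all 10 rows, and mt-Nd5 has the highest fitted value, 0.25.

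The 6 mRNA rows inside the nuclear copy were measured with little precision, and their changes in counts were not shown to be changes in RNA. mt-Co2, another core subunit of complex IV, had 349 and 364 normalized counts in WT_CTCF and 335 and 312 in MUT_CTCF, a log2 change of -0.14 (SE 0.14). mt-Co3, the remaining complex IV subunit, had 244 and 276 against 230 and 254, a log2 change of -0.10 (SE 0.16). mt-Atp6, which forms part of the proton channel of the ATP synthase, had 96.2 and 108 against 110 and 97.5 (log2 change 0.022, SE 0.26). mt-Nd3 had 14 and 17 counts in WT_CTCF and 11 and 8 in MUT_CTCF, and mt-Nd4l, like it a small complex I subunit, had 16 and 27 against 24 and 25. Their standard errors were 0.75 and 0.59, and the 5 rows had adjusted p-values of 0.718 to 0.98 in edgeR. mt-Atp8, a small ATP synthase subunit, had 5 counts in every library and was not tested.

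As a proportion of the counts on the mitochondrial mRNA rows, mt-Nd5 was higher in both MUT_CTCF libraries than in both WT_CTCF libraries. These are shares of uniquely mapped counts, in which the 6 rows with almost no unique sequence held at most 363 counts each per library. They do not give the make-up of mitochondrial mRNA in the cells. mt-Nd5 made up 3.74% and 3.81% of all mitochondrial mRNA counts in WT_CTCF and 4.32% and 4.31% in MUT_CTCF. Per 100 counts of mt-Co1 there were 5.99 and 6.08 counts of mt-Nd5 in WT_CTCF and 6.91 and 6.87 in MUT_CTCF. The MUT_CTCF libraries were close in this ratio (exact permutation p = 0.33, the smallest p for n = 2 each). Per 100 counts of mt-Nd4 they were further apart, with 89.3 and 84.3 counts of mt-Nd5 against 77.1 and 77.4 in WT_CTCF. mt-Nd6 made up 0.721% and 0.732% in WT_CTCF and 0.799% and 0.771% in MUT_CTCF, mt-Cytb 11.83% and 11.84% against 11.5% and 11.3%, and mt-Co1 62.5% and 62.6% against 62.5% and 62.7%. The lines did not overlap for mt-Nd6, which was higher, and mt-Cytb, which was lower, and overlapped for mt-Co1.

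A fit in which each library was scaled to its summed mitochondrial mRNA counts, chosen after the data had been seen, compared each row with the mitochondrial mRNA total, the row itself included. There the log2 change of mt-Nd5 was 0.19 (SE 0.057, edgeR unadjusted p = 0.000713, adjusted p = 0.0511) and missed the threshold, and that of mt-Nd6 was 0.11 (adjusted p = 0.451). mt-Co1 makes up most of the total and could not be assessed in this way. In this fit the whole table had 73 higher and 143 lower calls (33.8% higher), and the median of all rows was -0.05, since every nuclear row was also set against the mitochondrial total.

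**Figure D4:**
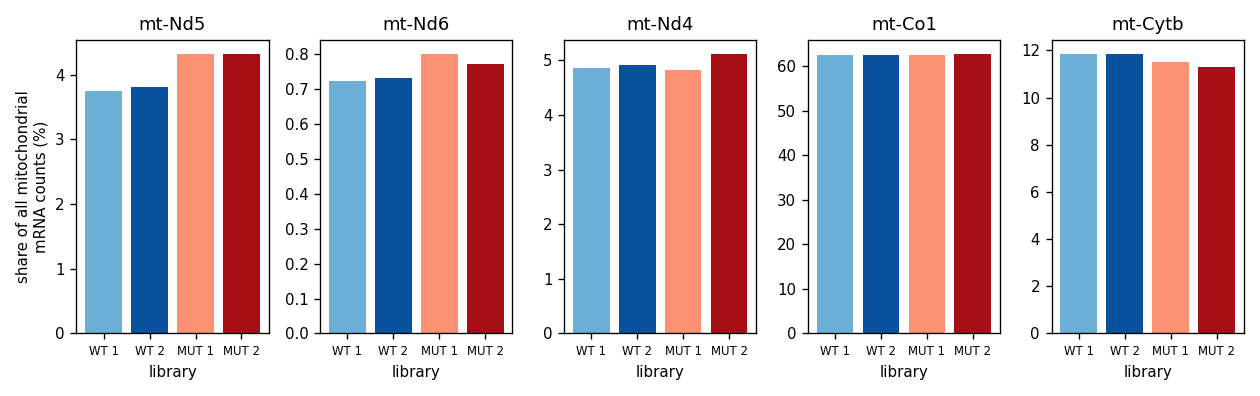
Bars give the share of each library's mitochondrial mRNA counts, in percent, taken by mt-Nd5, mt-Nd6, mt-Nd4, mt-Co1 and mt-Cytb. Counts are of uniquely mapped reads, so the shares do not give the make-up of mitochondrial mRNA in the cells. The mt-Nd5 share is 3.74% and 3.81% in the WT_CTCF (WT) libraries and 4.32% and 4.31% in the MUT_CTCF (MUT) libraries, and the mt-Co1 share is 62.5% to 62.7% in all 4.

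In RPKM (counts scaled by row length and library size), mt-Co1 was the highest at 7179, followed by mt-Nd1 at 1999, mt-Cytb at 1800, mt-Nd2 at 886, mt-Nd4 at 634, mt-Nd5 at 394 and mt-Nd6 at 258, as means over the 4 libraries. The rRNA rows were at 57.1 for mt-Rnr1 and 41.6 for mt-Rnr2, and the tRNA row mt-Tp at 159. Because the RNA selection step is not named, these values do not rank mRNA, rRNA and tRNA against each other in the cells. Neighbours in the order of the mRNA rows and the 2 rRNA rows did not overlap over the 4 libraries. For example, mt-Nd1 spanned 1926 to 2109 and mt-Cytb 1738 to 1880, and mt-Rnr1 spanned 52.9 to 63.2 and mt-Rnr2 38.4 to 45.5. Per 1000 unique 100-base windows, mt-Nd4 (1737 CPM) moved above mt-Nd2 (1014), so the place of mt-Nd4 depends on how the copied part is treated.

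mt-Rnr1 and mt-Rnr2 encode the RNAs of the small and the large subunit of the mitochondrial ribosome and lie next to each other at positions 70 to 1024 and 1094 to 2675. mt-Rnr2 had 2495 and 2496 normalized counts in WT_CTCF and 2916 and 2826 in MUT_CTCF. The lines did not overlap and the replicates were close. Its log2 change was 0.20 (SE 0.055, edgeR adjusted p = 0.0259), an increase of 15.1%, and it stayed between 0.18 and 0.22 with any 1 library left out, where it was no longer called (adjusted p = 0.154 to 0.484). In DESeq2 its adjusted p was 0.0505, and over its 14 alternatives the adjusted p ran from 0.0111 to 0.484. mt-Rnr1 had 2074 and 2195 normalized counts in WT_CTCF and 2448 and 2175 in MUT_CTCF, so that MUT_CTCF replicate 2 lay below WT_CTCF replicate 2. Its log2 change was 0.11 (SE 0.062, edgeR adjusted p = 0.384), 0.027 when MUT_CTCF replicate 1 was left out and 0.20 when MUT_CTCF replicate 2 was. Per 100 counts of mt-Rnr1 there were 120 and 114 counts of mt-Rnr2 in WT_CTCF and 119 and 130 in MUT_CTCF. These ratios overlapped, with p = 0.667 in an exact permutation test (n = 2 each), and a different response of the 2 rRNAs was not shown.

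The tRNA rows were nearly empty. Of the 22, 17 had 0 counts in all 4 libraries, mt-Tl1, mt-Tn, mt-Tc and mt-Te had at most 4 counts in a library, and mt-Tp, the tRNA for proline, alone was tested. Sampling allows up to 3 counts on a row seen at 0, or 0.0732 to 0.074 CPM (counts scaled by library size) in these libraries. On the mitochondrial sequence taken as a line from position 1, mt-Tp was also the row with the longest unannotated neighbour, 877 bases of the control region. On the circle this region also borders mt-Tf, which starts at position 1. Counted along the line, mt-Tp was the only tRNA for which 150-base windows exist that touch its row and no other (67 of them, all unique). Its sequence and that of mt-Tc, the only other tRNA row with counts in every library, are shown 5′ to 3′ with the anticodon in capitals.
mt-Tp, chrM:15356-15422, minus strand: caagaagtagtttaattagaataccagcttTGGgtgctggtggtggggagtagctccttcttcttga
mt-Tc, chrM:5192-5257, minus strand: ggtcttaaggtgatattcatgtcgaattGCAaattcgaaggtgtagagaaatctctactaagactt
mt-Tp had 434 and 417 normalized counts in WT_CTCF and 479 and 404 in MUT_CTCF, which overlapped, and a log2 change of 0.054 (SE 0.13, edgeR adjusted p = 0.903) that became -0.074 without MUT_CTCF replicate 1. mt-Tc had 1, 3, 4 and 3 counts in WT_CTCF replicates 1 and 2 and MUT_CTCF replicates 1 and 2. At such counts a difference in the tRNA rows other than mt-Tp could not be detected. Why the tRNA rows held so few counts was not tested.

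Exons of 12 nuclear rows lay in copies of mitochondrial DNA, of which 7 had 0 counts in every library and 4 were tested, with 0 called. The 3 with the most counts were Gm10925 (150, 172, 152 and 160 counts in WT_CTCF replicates 1 and 2 and MUT_CTCF replicates 1 and 2), Gm10222 (78, 73, 142 and 74) and Gm13340 (90, 103, 103 and 62). Gm10925 and Gm10222 lie in the copy on chromosome 1, and in Gm10222 MUT_CTCF replicate 1 stood apart from the other 3 libraries. A read that matches a copy and the mitochondrial genome equally is left out of uniquely mapped counts on both sides, so these counts do not measure how many reads the copies produced.

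Nuclear genes linked to mitochondrial RNA and to the respiratory complexes were examined in 7 lists, of which 180 genes were tested. None was higher and 9 (5%) were lower, beside the 1.61% called lower in the whole table. Of the genes that transcribe and copy mitochondrial DNA, listed together with regulators of nuclear genes such as Nrf1, Gabpa and Esrra, 0 of 26 were called. Polrmt, the polymerase, had a log2 change of -0.019 (SE 0.049), Tfam, the packaging and initiation factor, -0.010 (0.059), Tfb2m, which opens the promoter, 0.033 (0.093), and Tefm, the elongation factor, -0.14 (0.082), with adjusted p-values of 0.421 to 0.965 in edgeR. Thus 95% intervals for Polrmt and Tfam ran from -0.11 to 0.076 and from -0.13 to 0.10.

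Among the genes that process, stabilise and degrade mitochondrial RNA, 1 of 25 was called. Grsf1, an RNA-binding protein of the mitochondrial RNA granules that is known to bind the mt-Nd6 transcript, had 16181 and 15984 normalized counts in WT_CTCF and 14268 and 14131 in MUT_CTCF. The lines did not overlap, and the log2 change was -0.18 (SE 0.03, edgeR adjusted p = 4.05e-05). Lrpprc and Slirp, partners that protect mitochondrial mRNAs, had log2 changes of -0.069 (SE 0.042) and -0.33 (SE 0.15), with adjusted p-values of 0.459 and 0.281. Among genes for rRNA and tRNA modification and ribosome assembly, 1 of 36 was called. Rnmtl1, a methyltransferase of the large mitochondrial rRNA, had 1305 and 1332 normalized counts in WT_CTCF and 1016 and 1086 in MUT_CTCF, a log2 change of -0.33 (SE 0.079, edgeR adjusted p = 0.0089). Of 20 translation and insertion factors 0 were called.

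Of 75 nuclear genes for subunits of respiratory complexes I to V, 69 had a log2 change below 0, beside 49.2% of all rows tested. Of the 75, 7 were called lower, beside 1.61% of all rows, and 0 higher, and the median was -0.067, beside 0.0034 for all rows. In 45 of the 75 (60%) both MUT_CTCF libraries were below both WT_CTCF libraries, beside 22.3% of all rows. Among 35 complex I subunits, Ndufb3 (1361 and 1383 normalized counts in WT_CTCF, 1142 and 1090 in MUT_CTCF) and Ndufab1, its acyl carrier protein, were lower, with log2 changes of -0.30 (SE 0.077, edgeR adjusted p = 0.0167) and -0.16 (SE 0.046, edgeR adjusted p = 0.0357). Among 36 subunits of complexes III, IV and V, Atp5g1, which encodes the ring subunit of the ATP synthase, went from 16369 and 16191 to 14892 and 14457 normalized counts, a log2 change of -0.15 (SE 0.03, edgeR adjusted p = 0.000888). Usmg5, a small ATP synthase subunit, and the complex IV proteins Cox4i1, Cox7b and Ndufa4 were lower, with log2 changes of -0.31, -0.11, -0.21 and -0.17 (edgeR adjusted p = 0.011 to 0.035). Of the 4 complex II subunits, all nuclear, 0 were called and the median was -0.036. Without WT_CTCF replicate 1 the median of the complex I subunits was -0.033, with 22 of 35 below 0 in place of 33. That of complex II was -0.0094 in the same fit. When a MUT_CTCF library was dropped instead, the complex I median was -0.076 (replicate 1 dropped) or -0.084 (replicate 2 dropped).

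**Figure D5:**
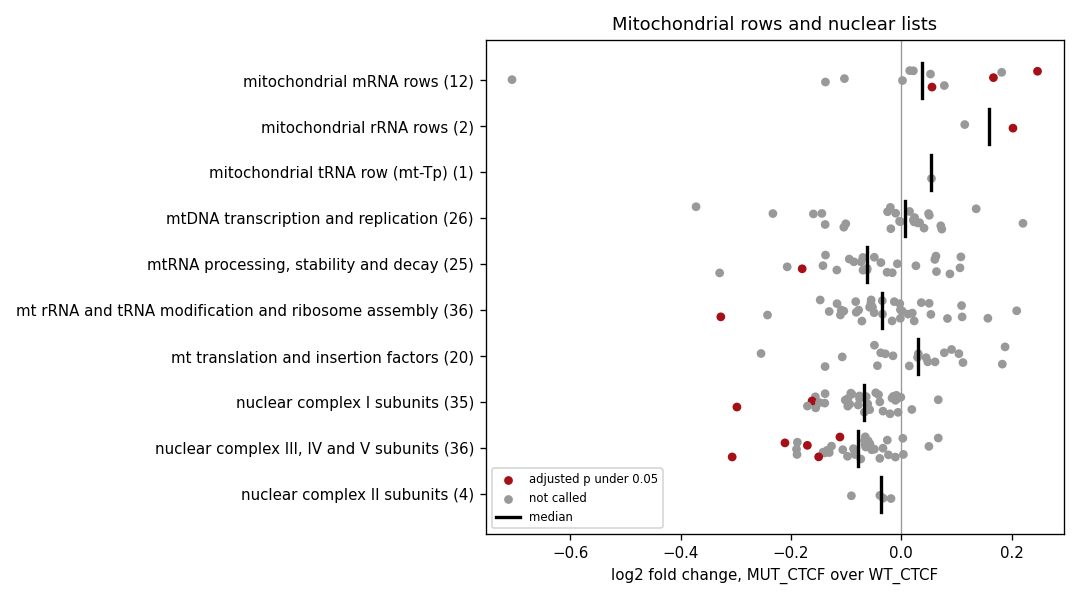
Each point is the log2 change of MUT_CTCF over WT_CTCF of 1 tested row, for the mitochondrial rows by class and for 7 lists of nuclear genes, with the number tested in parentheses, red where the adjusted p was under 0.05 and a bar at the median. The median is 0.037 for mitochondrial mRNA rows and -0.067 and -0.079 for the nuclear subunits of complex I and of complexes III, IV and V.

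The libraries were alike in depth, with 40524694 to 40977464 counts and TMM factors of 0.994 to 1.01. Summed normalized counts of 6 pluripotency markers were 217666 to 219534 in WT_CTCF and 215650 to 215734 in MUT_CTCF, with Sox2 called higher and Dppa5a lower. Those of 7 fibroblast markers were 886 to 908 and 964 to 1023 with 0 of 4 tested called and Lum at 0 in every library, those of 6 primitive endoderm markers 615 to 639 and 662 to 840 with 0 of 5 called, and those of 5 trophectoderm markers 611 to 707 and 485 to 511 with Cdx2 called lower. The part of these markers in the mitochondrial values was not tested. The counts do not separate the Ctcf RNA of the vector from that of the endogenous gene.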

How the data were processed

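The authors trimmed reads with Trim Galore 0.4.4, dropping those under 50 nt, mapped the rest to mm9 with STAR, and deposited raw counts of uniquely mapped reads per gene from HTSeq 0.9.1 (versions from the submitters' processing notes). Their own edgeR comparison (log2 fold change, average expression, p, false discovery rate) was not used. Names and places came from GENCODE M1 (NCBIM37), and 3 symbols or fewer per mitochondrial list, and 10 of 13 nuclear-retained RNAs, had no match. Mitochondrial members and lists were chosen with earlier results of these data known. Named were all 37 rows, up to 5 called genes per list, Polrmt, Tfam, Tfb2m, Tefm, Lrpprc and Slirp, and the 3 nuclear copy rows with the most counts.

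Counts were filtered by filterByExpr (minimum of 10 counts), scaled by TMM and tested with edgeR 4.0.16 (glmQLFit, glmQLFTest, no covariate, R 4.3.3), with Benjamini-Hochberg adjustment over 16264 rows, after tests on simulated data. The standard error is the size of the log2 fold change over the root of F. Copies were found with blastn 2.17.0. As alternatives, DESeq2 1.42.0, edgeR's exact test, other scalings and filters, halved counts, blocking by replicate number and omission of each library in turn were tried. Of 3 nuclear-retained RNAs matched (Malat1, Neat1, Meg3), 0 were called.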

Additional observations from a re-analysis of the deposited data

How the results depend on the processing

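Most alternatives left the log2 fold changes in place, and it was the calls that moved. mt-Nd5 kept its call in 11 of 14 alternatives, and mt-Nd5, mt-Nd6, mt-Co1, mt-Rnr2 and mt-Nd4 kept a log2 fold change above 0 in every one. Against 3 mRNA rows and 1 rRNA row called higher, there were 1 and 0 without a filter, 0 and 0 with a fold change above 1.5 or with an unadjusted p under 0.05 and a fold change above 2, and 0 and 0 relative to the mitochondrial mRNA rows. DESeq2 called 0 rRNA rows. Without 1 library fewer rows were called over the whole table, the mitochondrial rows and the nuclear lists included, so counts of calls are not compared there. The mRNA median of 0.037 ranged from -0.014 to 0.085 without 1 library and was -0.018 relative to the mitochondrial mRNA rows. The tRNA median was 0.76 without a filter, where it rests on rows of 4 counts or fewer, and -0.074 to 0.17 without 1 library, and the tRNA share ratio ran from -0.061 to 0.19. Nuclear list genes called lower went from 9 to 0 without a filter and to 0 to 5 without 1 library.

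Signs turned without 1 library for mt-Nd1 (-0.049 to 0.075), mt-Cytb (-0.052 to 0.053), mt-Atp6 (-0.068 to 0.11), mt-Nd4l (-0.15 to 0.60) and mt-Tp (-0.074 to 0.17), and relative to the mitochondrial mRNA rows for mt-Nd1 (-0.040), mt-Nd2 (-0.0017), mt-Atp6 (-0.034), mt-Cytb (-0.053) and mt-Tp (-0.0024). A lone library was assumed to vary like the other line.

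The replicate numbers did not pair the libraries, with a correlation of -0.0192 between their deviations over 16264 rows. With the replicate block, mt-Nd4 was also called (adjusted p = 0.0323), and 326 higher and 372 lower rows were called in the table. The cause of these shifts was not tested.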
